A study of Mus musculus with 20 samples.

Results

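Complement is a cascade of plasma and tissue proteins in which serine proteases switch one another on at a surface, ending in opsonization and a pore in the target membrane. In the classical pathway, C1r activates C1s within the C1 complex, C1s cleaves C4 and C2, and the convertase formed from their fragments cleaves C3, on which all pathways meet. C1 inhibitor (Serping1) inactivates C1r and C1s, while CD55, CD46 and CD59 on the cell surface protect host cells, CD55 by speeding the decay of convertases, CD46 as a cofactor in the cleavage of C3b and C4b, and CD59 by blocking the pore. Transcripts of C1s1, C1s2, C1ra, C3, C4b, Serping1, Cd55, Cd59a and Cd46 were described here in cultured ovarian surface epithelial (OSE) cells, the single layer of cells over the ovary. These 9 genes were chosen by name for their place in the pathway, with no threshold on a value but with earlier contrasts between the clusters and treatments of these cells known, and 8 of them were among the 14299 genes of the count table. Serping1 was not analysed here.

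Primary mouse OSE cultures spent 48 hours without hormone and then 15 days with 100 nM estradiol (E2), an estrogen, or with ethanol, its vehicle, at 0.0002%. A Fluidigm C1 chip, each of whose columns gave 1 library of 3′ transcript ends, was used to capture single cells. The 10 control libraries (columns 1 to 10) held 30 to 36 cells each and the 9 E2 libraries held 26 to 32, for 329 control and 260 E2-treated cells, and cells of column 13 were not analysed here. Control cells entered the chip by 1 inlet (columns 1 to 10) and E2-treated cells by the other, so treatment and inlet cannot be told apart. The number of cultures behind each condition is not given in the sources used here. Every error given is the spread between libraries loaded by the same inlet, which may be technical and cannot be read as the spread between cultures. The p-values below set the treatments against this spread. By the deposited labels for 2 clusters, 168 cells (126 control and 42 E2-treated) formed cluster 1, and the other 421 (203 and 218) are called responsive cells. Greb1, a classical estrogen-induced gene, was at 16.3 to 64.5 CPM (reads scaled to the size of the library sum) in the responsive cells of the E2 libraries and at most 0.353 CPM in those of control libraries.

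Library totals were 3867791 to 5078340 counts in control and 2693258 to 4037847 in E2, and the median cell had 143233 reads among responsive control cells, 117809 among responsive E2-treated cells, 112126 among control cells of cluster 1 and 87632 among E2-treated cells of cluster 1. In the same order, the median cell had 4574, 4169.5, 4155.5 and 3709.5 genes detected and 2.08%, 2.43%, 2.53% and 3.55% of its reads on mitochondrial genes, so depth, genes and mitochondrial share moved with treatment in both clusters, and their part in the results was not tested. Of a list of 10 OSE markers, all were detected in both clusters and both conditions, with summed levels of 6597 ± 390.0 CPM (SD, n = 10 libraries) in responsive control cells and 6223 ± 874 CPM (n = 10) in control cells of cluster 1. With E2 the sums were 6048 ± 435 CPM (n = 9) in responsive cells and 5519 ± 448 CPM (n = 7) in cluster 1. A sum does not show whether single markers differed between the clusters. Of 10 leukocyte markers, Adgre1, Lyz2, Tyrobp, Fcer1g and Laptm5 were not in the table, and the other 5 summed to 111 ± 31.2 CPM in responsive control cells and 104 ± 38.6 CPM in responsive E2-treated cells. The library of E2 column 15 stood apart: its cluster 1 sum held only 3 cells, and its responsive cells had a summed level of 7 stromal fibroblast genes of 4783 CPM, against 1697 to 2182 CPM in the other E2 libraries, while the same sum in its cluster 1 cells was 9570 CPM, against 2639 to 4608 CPM. Many of the values that this library moves are given without it as well. Values by trajectory state and correlations between genes were not computed without it.

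C1s1 and C1s2 are mouse copies of the C1s gene, and C1ra and C1rb of the C1r gene, all on chromosome 6. C1s1 lies at chr6:124530345-124542359 (GRCm38, minus strand) and C1s2 at chr6:124624625-124636085 (minus strand), while C1ra lies at chr6:124512405-124523443 and C1rb at chr6:124570294-124581171 (plus strand). The libraries read 3′ ends, and transcripts run on past the last coding bases. The last 150 coding bases of C1s1 (chr6:124530944-124531093) and C1s2 (chr6:124625166-124625315) are printed to show where these copies differ in the coding part. Capitals mark the bases that differ between them.
C1s1: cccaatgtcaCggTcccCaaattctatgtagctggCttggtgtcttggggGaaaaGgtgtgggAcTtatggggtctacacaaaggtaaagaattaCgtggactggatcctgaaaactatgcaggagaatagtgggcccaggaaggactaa
C1s2: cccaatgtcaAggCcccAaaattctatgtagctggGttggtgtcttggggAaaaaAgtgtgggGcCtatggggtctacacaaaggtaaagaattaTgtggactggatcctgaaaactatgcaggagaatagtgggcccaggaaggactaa
In these windows 9 bases differed, and over the whole coding sequence, 2085 bases in each copy, 90 did (95.7% identity). C1ra and C1rb were 98.0% identical over the aligned coding bases and differed at 1 of the last 150. Near the 3′ end of the longest transcript, 29.6% of stretches of 31 bases in C1s1 also occurred in C1s2, and 34.8% in reverse. The shares were 28.0% for C1ra in C1rb and 56.8% in reverse. A gene whose reads fit both copies receives fractions of a read, and such values, not whole within 0.001, made up 66.2% of the cells with a count of C1s1, 89.3% for C1s2, 53.3% for C1ra and 83.5% for C1rb. The share was 0.685% for C3, 2.12% for Cd55 and 2.56% for Cd59a. C1s2 took 5.58% ± 0.615 of the counts of the C1s pair in control cells of cluster 1 and 6.97% ± 2.93 in responsive control cells (SD, n = 10), so a separate response of C1s2 is uncertain, as is one of C1rb.

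The proteases of the C1 complex were the members with higher levels in cluster 1 than in responsive cells in every library. C1s1 was at 2133 (lowest), 3100.2 (median) and 3639 CPM (highest) over 10 control libraries in cluster 1, and at 300.5, 338 and 443 CPM over the same libraries in responsive cells. No library overlapped: the mean level in cluster 1 was 8.42 times that in responsive cells among controls and 18.4 times among E2 libraries (15.5 times without column 15), and it was higher in 17 of 17 libraries with both clusters. C1s2 was at 124, 174 and 254 CPM in control cells of cluster 1 against 12.4, 24.4 and 48.3 CPM in responsive control cells, and was also higher in 17 of 17 libraries. C1ra had the smaller contrast, 252, 322 and 595 CPM against 103, 132 and 219 CPM, a ratio of 2.46 in control and 4.25 in E2 libraries, and was higher in 17 of 17. Its copy C1rb was at 41.0 ± 29.2 CPM in cluster 1 and 19.7 ± 8.17 CPM in responsive cells of control libraries (SD, n = 10). Expression in these same cells defined the clusters, so the contrasts between them are descriptions without a test. Of 11395 genes, 0.588% had sums that did not overlap between clusters, 0.132% higher in cluster 1, as these 3 members were, and 0.456% lower, and nothing is read from the members' count. In control libraries the 7 fibroblast genes summed to 3876 ± 567.7 CPM in cluster 1 and 2228 ± 147 CPM in responsive cells (SD, n = 10), a difference carried by Col1a2, without which the sums were 2002 ± 356 and 2213 ± 148 CPM. Mmp2 was also higher in cluster 1 (244 against 1.47 CPM), while Col1a1 (77.8 against 197 CPM), Col3a1 (270.2 against 569.7 CPM) and Thy1 (9.34 against 171 CPM) were lower there. The 2 detected genes of 8 granulosa and theca markers summed to 213 ± 130 CPM in cluster 1 and 37.8 ± 17.6 CPM in responsive cells, and the other 6, Foxl2, Fshr and Amh among them, were not in the table. Their part in the levels of the proteases was not tested.

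C3, the central component of the cascade, went the other way in control cells, with 817, 1213 and 1708 CPM in cluster 1 and 1638, 2039.6 and 3119 CPM in responsive cells, and the level in cluster 1 was higher in 1 of 10 control libraries. Among E2 libraries the order was not the same, and cluster 1 was higher in 4 of 7. Cd55 was lower in cluster 1, at 42.9, 114 and 334 CPM against 287, 371 and 508 CPM in control libraries, and was higher in cluster 1 in only 1 of 17 libraries. Cd59a had a ratio of 1.01 between the means of all sums, with cluster 1 higher in 8 of 17 libraries. This pools a ratio of 0.89 in control libraries (cluster 1 higher in 4 of 10) and of 1.18 in E2 libraries (4 of 7). C4b, which encodes the component cleaved by C1s, had 322 reads in 26 cells. Its level was 0, 6.11 and 23.2 CPM over the control libraries in responsive cells, while 8 of 10 control libraries and all 7 E2 libraries had no C4b read in cluster 1. Cd46, whose expression in mice is known to be largely confined to the testis, had 112 reads in 13 cells, and 92.5% of its reads in control cells of cluster 1 came from 1 cell.

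**Figure D1:**
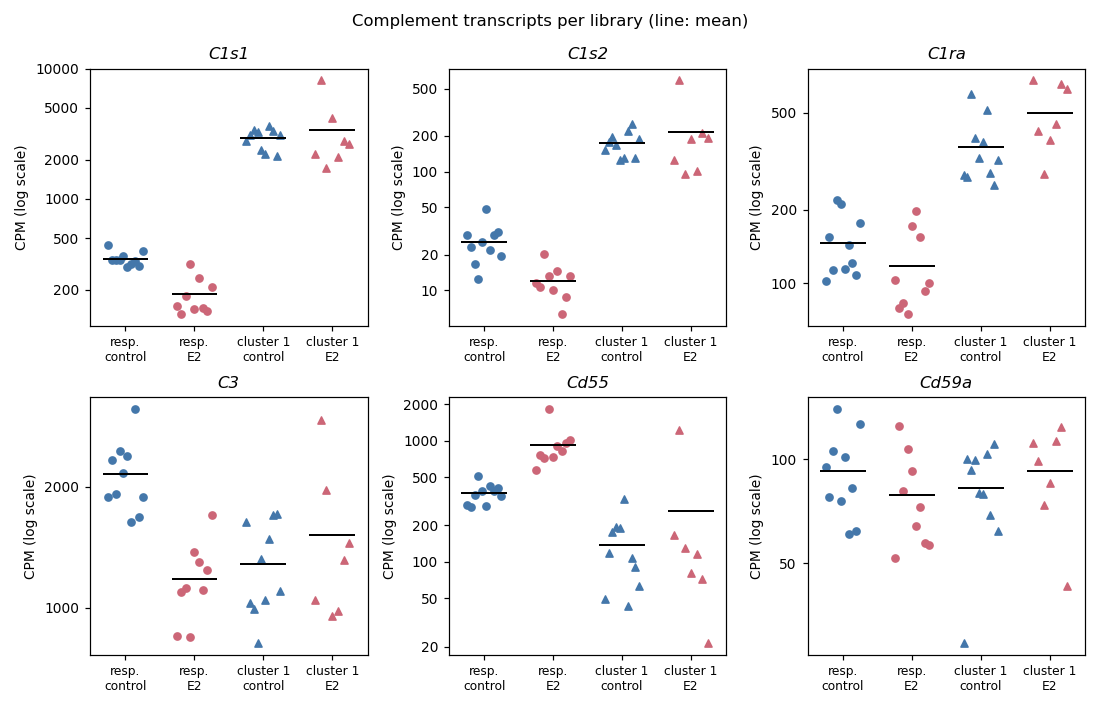
CPM on a log scale of 6 complement transcripts in each library, for responsive cells (circles) and cluster 1 cells (triangles) of control (blue, 10 libraries) and E2 (red, 9 libraries in responsive cells and 7 in cluster 1). The line is the mean. C1s1, C1s2 and C1ra sit higher in every cluster 1 sum than in every responsive sum, Cd55 in responsive cells is higher in every E2 library than in every control library, and the highest E2 triangle of C1s1, C1s2, C3 and Cd55 is column 15.

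Detection per cell showed the same order. With each cell thinned to 20000 reads, so that depth is equal, C1s1 had a read in 98.8% ± 3.95 of control cells in cluster 1 (SD, n = 10 libraries) and in 91.1% ± 7.70 of responsive control cells. C1s2 had a read in 86.2% ± 9.50 and 27.9% ± 8.17 of these cells, and Cd55 in 46.9% ± 15.6 and 88.0% ± 6.83. C3 had a read in 95.9% ± 5.98 and 97.3% ± 2.93, so most cells of either cluster held C3 transcripts. For Cd59a the order differed between conditions. Among controls a read was found in 39.6% ± 12.4 of cells in cluster 1 and 50.5% ± 13.2 of responsive cells. With E2 the shares were 68.8% ± 20.6 (n = 7) and 42.5% ± 10.1 (n = 9). Before thinning, the shares for C1s1 were 100% of 126 control cells in cluster 1 and 98.5% of 203 responsive control cells. C1s1 in responsive control cells was at 11.9% of its level in control cells of cluster 1, while Col1a2, a collagen chain, was at 0.797%.

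E2 against control was compared within each cluster by edgeR's quasi-likelihood test on library sums, with Benjamini-Hochberg adjustment over all genes tested. Called genes had an adjusted p under 0.05 and a log2 fold change beyond 0.5 in either direction. In responsive cells, 3 members were called, which were Cd55 (higher), C3 (lower) and C1s1 (lower). Of the 8 members, 7 passed the filter on low counts and Cd46 did not, and 1.37% of all 10265 genes tested were called (0.848% higher and 0.526% lower). The 3 calls held under leaving out each of the 19 libraries in turn. Because the genes were listed with earlier results of these cells known, the calls describe them and are not independent evidence of a pattern.

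The start regions of the 3 called genes are printed with the motifs searched in them, each as 250 bases before and 50 after the RefSeq start (GRCm38, read along the gene). The windows are chr17:57228087-57228386 for C3, chr1:130462695-130462994 for Cd55 and chr6:124542310-124542609, 1 of 2 windows, for C1s1, all on the minus strand. Capitals mark matches to the motifs searched.
C3: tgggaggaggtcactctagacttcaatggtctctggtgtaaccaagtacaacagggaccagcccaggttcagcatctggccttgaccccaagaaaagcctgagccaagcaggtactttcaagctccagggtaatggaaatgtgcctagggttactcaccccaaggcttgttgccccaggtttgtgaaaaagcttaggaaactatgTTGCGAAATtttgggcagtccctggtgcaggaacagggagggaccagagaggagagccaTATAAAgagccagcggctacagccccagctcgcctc
Cd55: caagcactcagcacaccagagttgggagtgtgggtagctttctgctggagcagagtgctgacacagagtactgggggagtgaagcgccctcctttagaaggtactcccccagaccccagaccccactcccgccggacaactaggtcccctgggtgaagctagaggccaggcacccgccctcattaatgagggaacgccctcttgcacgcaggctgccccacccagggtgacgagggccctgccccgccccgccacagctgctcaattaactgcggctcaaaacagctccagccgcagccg
C1s1: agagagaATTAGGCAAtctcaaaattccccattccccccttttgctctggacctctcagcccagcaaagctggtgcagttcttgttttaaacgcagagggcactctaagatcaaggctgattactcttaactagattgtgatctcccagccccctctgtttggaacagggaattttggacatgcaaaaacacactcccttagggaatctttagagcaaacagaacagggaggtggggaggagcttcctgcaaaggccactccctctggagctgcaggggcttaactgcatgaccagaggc
The C3 window held the C/EBP core TTGCNNAAT, 45 bases before the start and present in 2.40% of 32817 windows of this length, and TATAAA, 14 bases after it and present in 13.6%. The C1s1 window held the C/EBP core on the other strand, 243 bases before the start, and the second C1s1 window held none of the motifs. No window of C1s1, C1s2, C1ra, C3, Cd55, Cd59a or Cd46 held the palindromic estrogen response element (GGTCA and TGACC 3 bases apart), which 0.0701% of all windows hold, nor the NF-kB site (0.155%) or the AP-1 site TGANTCA (7.81%). The interferon-stimulated response element (GAAA repeated 2 bases apart, 3.43%) matched in the windows of Cd59a and Cd46, and the GAS element TTCNNNGAA (8.29%) in that of C1ra. Both strands were searched, and a match or its absence in 300 bases is a description of letters only.

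Cd55 had the clearest change. In responsive cells it was at 287, 371 and 508 CPM (lowest, median, highest of 10 control libraries) and at 574, 828.8 and 1825 CPM over 9 E2 libraries, so every E2 library was above every control library. The ranges did not overlap for 0.448% of the genes tested, upward for 0.273% and downward for 0.175%, and Cd55 was the only member among them. The mean rose from 368 ± 69.0 to 923 ± 364 CPM (SD), a log2 fold change of 1.33 (SE 0.17, adjusted p = 9.92e-06). The highest value came from column 15, and without that library the E2 mean was 810.4 ± 144 CPM (n = 8) and the fold changes over all single libraries left out were 1.15 to 1.39. The median responsive cell went from 274 to 680.1 CPM, and after thinning a read of Cd55 was found in 96.4% ± 3.06 of E2-treated responsive cells against 88.0% ± 6.83 of control ones. Its reads were spread over many cells, as 47 of 218 E2-treated responsive cells held 50% of them.

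C3 fell in the same cells. Its levels were 1638, 2039.6 and 3119 CPM in control libraries and 844, 1118 and 1700.4 CPM in E2 libraries, with only the highest E2 library above the lowest control library. The mean went from 2146 ± 447 (n = 10) to 1181 ± 266 CPM (n = 9), a log2 fold change of -0.85 (SE 0.14, adjusted p = 0.000492). The median cell went from 1453 to 704 CPM, while the share of cells with a read after thinning was 97.3% ± 2.93 in control and 93.4% ± 6.25 in E2. C3 fell in level and was still found in most responsive cells.

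C1s1 was at 300.5, 338 and 443 CPM in responsive control cells and at 130.4, 151 and 318 CPM in responsive E2-treated cells, and the ranges overlapped only through column 15. Its mean went from 348 ± 43.6 to 184 ± 63.4 CPM, a log2 fold change of -0.91 (SE 0.16, adjusted p = 0.00107), and without column 15 the E2 mean was 168 ± 41.4 CPM (n = 8). A read was found in 91.1% ± 7.70 of control and 67.5% ± 5.84 of E2-treated responsive cells after thinning. C1s2 moved from 25.7 ± 9.93 to 12.03 ± 3.94 CPM, with a log2 fold change of -1.09 (SE 0.37). edgeR made no call on it (adjusted p = 0.209), while DESeq2 did (adjusted p = 0.0392), and its adjusted p ranged from 0.0392 to 0.214 over the alternatives. When the counts of C1s1 and C1s2 were summed before the fit, the pair was called in the same direction. C1ra was at 147 ± 43.0 and 118 ± 45.1 CPM (log2 fold change -0.31, SE 0.21, adjusted p = 0.731), and its ranges of 103 to 219 CPM and 74.8 to 198 CPM overlapped widely.

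The remaining members were not called in responsive cells. Cd59a was at 60.6, 88.9 and 139.9 CPM in control and 51.8, 73.0 and 125 CPM in E2 libraries, with a log2 fold change of -0.23 (SE 0.21, adjusted p = 0.838). C4b had 230 reads in the control and 83 in the E2 libraries, and 42.2% of the latter came from 1 cell. Its log2 fold change of -1.13 (SE 1.02, adjusted p = 0.839) was not distinguishable from the spread between libraries. Cd46 had 19 and 53 reads, and 1 cell of column 15 held 88.7% of the 53. Of the 2 membrane regulators among the members with enough reads to be tested, Cd55 was called and Cd59a was not. Whether their changes differ was not tested.

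**Figure D2:**
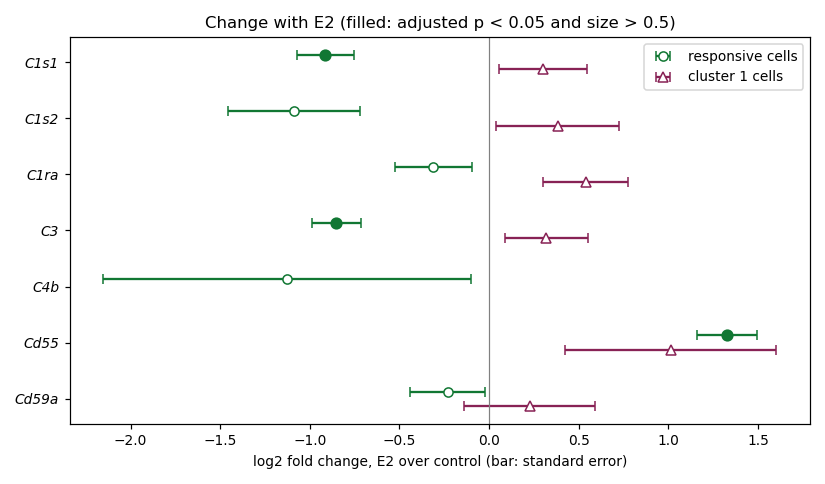
Log2 fold change of E2 over control (horizontal axis, bars are the standard error from edgeR) for the 7 members tested in responsive cells (circles) and the 6 tested in cluster 1 (triangles). Filled points passed an adjusted p of 0.05 and a size of 0.5: Cd55 at 1.33, C3 at -0.85 and C1s1 at -0.91, all in responsive cells.

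Fibroblast markers were followed beside the decrease of C1s1, since Col1a2 was among the genes most like it. Of 10 such markers, Pdgfrb, Lum and Tcf21 were not in the table, and the summed level of the other 7 in responsive cells was 2228 ± 147 CPM (1984 to 2451) in control and 2269 ± 956 CPM (1697 to 4783) in E2. Without column 15 the E2 sum was 1955 ± 172 CPM (n = 8), with a mean below that of control and ranges that overlap. Thy1, a surface glycoprotein, was the 1 gene called of the 6 on the list that were tested, against 0.526% of all 10265 genes called lower. It went from 171 to 24.8 CPM with a log2 fold change of -2.78 (adjusted p = 2.38e-06). Col1a2 went from 14.9 to 10.4 CPM in responsive cells and was not called (adjusted p = 0.898). Col1a1 (197 to 136 CPM) and Pdgfra (8.57 to 4.92 CPM) also had lower means with E2. Col3a1 (570 to 745 CPM), Dcn (1265 to 1347 CPM) and Mmp2 (1.47 to 1.75 CPM, not tested) had higher ones. Column 15 was the highest E2 library for Col3a1 (2010 CPM) and Dcn (2651 CPM). The part of any such cells in the decrease of C1s1 was not tested.

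Within cluster 1, no member was called among the 6 tested, and 0.0839% of 8340 genes were (3 higher, 0.036%, and 4 lower, 0.048%), with 622 genes at an unadjusted p below 0.05. The ranges of every member overlapped there, while those of 0.108% of genes did not (0.012% upward and 0.0959% downward). C1s1 was at 1715, 2636 and 8138 CPM over 7 E2 libraries, where the highest is column 15 with 3 cells, and at 2133, 3100.2 and 3639 CPM in control (log2 fold change 0.30, SE 0.24, adjusted p = 0.873). Without that library the E2 mean went from 3396 ± 2238 to 2606 ± 875 CPM (n = 6) and the log2 fold change turned to -0.12. C1s2 likewise turned from 0.38 to -0.14 and Cd55 from 1.01 to -0.44. C1ra had the largest fold change that did not turn, 0.54 (SE 0.24, adjusted p = 0.602), with 281, 451 and 678 CPM in E2 against 252, 322 and 595 CPM in control libraries. C3 was at 1283 ± 329 CPM in control and 1518 ± 715 CPM in E2 (log2 fold change 0.32, SE 0.23, adjusted p = 0.835), and at 1283 ± 385 CPM without column 15. Cd55 reads in cluster 1 were concentrated in few cells, as 3 of 42 E2-treated cells held 50% of them.

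Whether the change with E2 differed between clusters was tested by the interaction term of a fit over all 36 sums. No member was called, and 0.184% of 11398 genes were, 2 (0.0175%) with a difference above 0 and 19 (0.167%) below it, with 1244 genes at an unadjusted p below 0.05. With RLE size factors in place of TMM this split was 7 and 15, and with DESeq2 it was 31 and 67. The difference of the log2 fold changes, cluster 1 minus responsive, was 1.12 for C3 (SE 0.27, adjusted p = 0.0589) and 1.16 for C1s1 (SE 0.30, adjusted p = 0.0852), and the median over all genes was -0.19. DESeq2 called C3, C1s1 and C1s2 in this test, and RLE scaling called C3 and C1s1. The 36 sums include both clusters of the same libraries, and with the library as a replicate block 0 genes were called, the median over all genes was -0.53, and the adjusted p was 0.427 for C3 and 0.119 for C1s1. Over the alternatives the adjusted p ranged from 0.00668 to 0.427 for C3 and from 0.00941 to 0.291 for C1s1. The sizes of the differences lean on column 15. Without both of its sums they were 0.79 for C3 (SE 0.22, adjusted p = 0.128), 0.87 for C1s1 (SE 0.20, adjusted p = 0.0531) and 0.92 for C1s2 (against 1.423 with it). The adjusted p was then higher for C3 and lower for C1s1 than in the fit with column 15. No other library was left out of this test. With only the cluster 1 sum of column 15, of 3 cells, left out, the differences were 0.88 for C3, 0.77 for C1s1 and 0.92 for C1s2.

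For Cd55 the difference was -0.38 (SE 0.62, adjusted p = 0.910), and with sums of at least 5 cells, which leaves out the cluster 1 sum of column 15, it was -1.78 (SE 0.44, adjusted p = 0.0789). Without both sums of column 15 it was -1.62 (SE 0.42, adjusted p = 0.0998).

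When all cells of a library were summed whatever their cluster, 4 members were called, against 1.62% of 10945 genes (1.13% higher and 0.484% lower): Cd55 (1.56, adjusted p = 2.31e-06), C3 (-0.59, adjusted p = 0.00559), C1s1 (-1.11, adjusted p = 0.00871) and C1s2 (-1.16, adjusted p = 0.00555). Cluster 1 made up 38.3% of control and 16.2% of E2-treated cells. In this comparison fewer cells of cluster 1 and less RNA per cell cannot be told apart, which bears on C1s1 and C1s2 most, since their levels differed most between clusters.

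**Figure D3:**
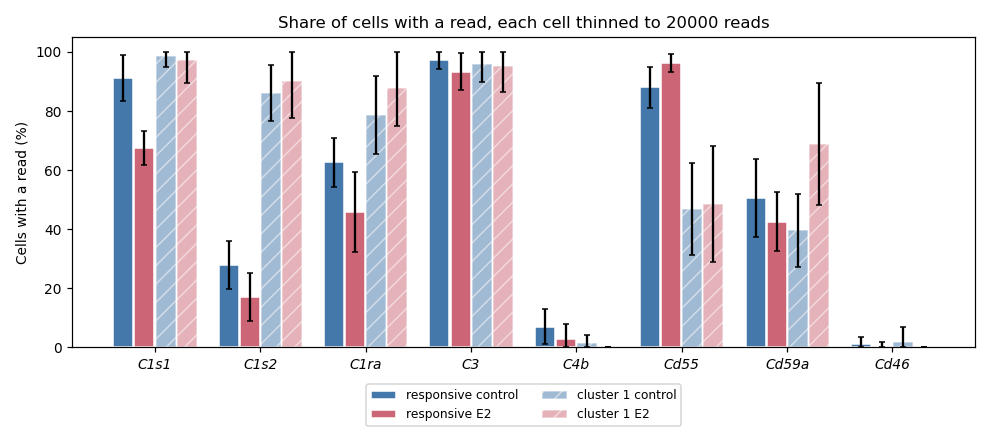
Percent of cells with at least 1 read of each member after each cell was thinned to 20000 reads, as the mean of the libraries with the SD as bars (drawn no further than 0 and 100), for responsive (solid) and cluster 1 (hatched) cells of control (blue) and E2 (red). C1s1 in responsive cells is at 91.1% in control and 67.5% in E2, Cd55 is at 46.9% and 48.5% in cluster 1 and at 88.0% and 96.4% in responsive cells, and C4b and Cd46 are near 0.

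The levels were also followed over the trajectory states deposited for each cell, which order cells by similarity along branches. State 2 held 143 control cells, states 4, 5 and 6 held 43, 151 and 21 E2-treated cells, and state 1 held 148 control and 41 E2-treated cells, 126 and 41 of them from cluster 1. C3 was at 2331 ± 548 CPM in state 2 (SD, n = 10 libraries) and at 1080.1 ± 433 (n = 8), 1130.2 ± 266 (n = 9) and 1239 ± 453 CPM (n = 5) in states 4, 5 and 6. Cd55 was at 359 ± 71.9 CPM in state 2 and at 901 ± 694, 922 ± 364 and 828.6 ± 320.1 CPM in those 3 states. C1s1 was at 371 ± 93.3 CPM in state 2 and at 169 ± 89.5, 173 ± 72.7 and 165 ± 94.5 CPM. Among E2-treated cells the 3 states lay within 1 SD of one another for each of these genes. The 21 control cells of state 4 gave a sum in 1 library only, with 2105 CPM of C3, 254 CPM of Cd55 and 173 CPM of C1s1, the last at the level of the E2 states. The 14 control cells of state 7 gave sums in 2 libraries, with 855 ± 351 CPM of C3, 228 ± 94.1 CPM of Cd55 and 193 ± 149.5 CPM of C1s1. All 3 means were below the lowest library of state 2, which was at 1578 CPM for C3, 284 CPM for Cd55 and 268 CPM for C1s1.

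**Figure D4:**
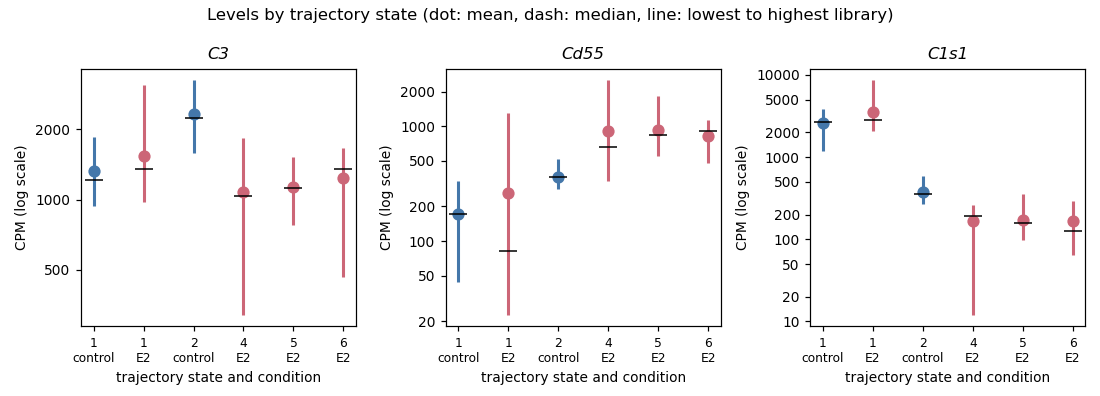
CPM on a log scale of C3, Cd55 and C1s1 by trajectory state and condition (control blue, E2 red) for combinations with at least 5 libraries. Dots are means, dashes medians and lines run from the lowest to the highest library. The E2 states 4, 5 and 6 have mean C3 levels of 1080.1 to 1239 CPM and control state 2 has 2331 CPM.

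The members were compared with each other cell by cell only as a description. Spearman's rho between C1s1 and C1s2 was 0.52 in 203 responsive control cells and 0.86 in 126 control cells of cluster 1, a pair that shares reads. Between C1s1 and C3 it was 0.31 in the former and 0.40 in the latter, and between C3 and Cd55 it was 0.12 and 0.03. In sparse counts from the same cells, weak coefficients of this kind are no finding.

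The genes whose pattern over the 36 sums was most like that of a member, by Pearson's r of log2 CPM over 11395 genes, were C1s2 (0.98), Col1a2 (0.96) and the estrogen-metabolising enzyme Cyp1b1 (0.95) for C1s1. For C1ra they were Lgals3 (0.89), which encodes galectin-3, Col1a2 (0.87) and C1s1 (0.86). The sums fall into 2 clusters that the coefficient pools, and Col1a2 was at 1874 ± 353 CPM in control cells of cluster 1 and at 14.9 ± 18.4 CPM in responsive ones. For C3 the nearest were Timp2 (0.66), an inhibitor of matrix metalloproteinases, Ets2 (0.60) and Igfbp2 (0.55), so no gene followed C3 as closely. Timp2 was picked for its likeness to C3 over these same sums, so its fall with E2 is not separate evidence. In responsive cells Timp2 went from 1193 ± 116 to 590 ± 96.9 CPM (edgeR log2 fold change -1.01, adjusted p = 2.23e-06). For Cd55 they were Oaz1 (0.85), Id3 (0.85) and Sorbs2 (0.85), for Cd59a 2410004B18Rik (0.66), Bet1 (0.63) and Ciao2a (0.58), and for C4b Fads3 (0.73), Dusp28 (0.70) and Nkd1 (0.66).

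Of a list of 58 complement genes, 28 were in the table and 22 were tested in responsive cells, where 1 was higher (Cd55) and 2 lower (C3 and C1s1), against 0.848% higher and 0.526% lower of all 10265 genes tested. Their median log2 fold change was -0.31, against 0.02 over all genes tested. Among recognition molecules and proteases 6 were tested and C1s1 was called, and the C1q chain genes were not in the table. Of 5 components tested, C3 was called and C2, the protease that pairs with C4b in the convertase, was level at 439 ± 58.1 CPM in control and 464 ± 48.5 CPM in E2 (log2 fold change 0.09, adjusted p = 0.898). None of the 5 soluble regulators tested was called. Clusterin (Clu), which binds the terminal complex, was at 1574 ± 276 and 1252 ± 373 CPM (log2 fold change -0.32, SE 0.15, adjusted p = 0.502). Clu was lower in cluster 1 than in responsive cells in all 17 libraries with both, at 390.3 ± 124 CPM in control cells of cluster 1. Among membrane regulators 5 were tested and only Cd55 was called, with Cr1l at 78.5 ± 36.1 and 66.8 ± 28.3 CPM. C1qbp, a mitochondrial protein that also binds C1q, was at 97.7 ± 35.0 and 92.6 ± 13.8 CPM. In cluster 1, 16 genes of the list were tested and none was called, against 0.0839% of all 8340 genes tested. Their median log2 fold change was 0.31, against -0.06 over all genes. This median includes the cluster 1 sum of column 15, of 3 cells, and is not given without it. Without that library C1s1 went from 0.30 to -0.12, C1s2 from 0.38 to -0.14 and Cd55 from 1.01 to -0.44. C1ra, C3 and Cd59a kept their sign, so no upward shift of the list is read from the median.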

How the data were processed

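Reads of a 3′ single-cell protocol were assigned to capture sites, quantified by the authors with kallisto 0.44.0 against GRCm38 and summed to genes with tximport, and the authors filtered cells and genes. The deposited values are estimated counts, not normalized, and 77.7% of values above 0 were whole within 0.001. kallisto divides reads that fit several transcripts. Reads carry no molecular identifiers, and shares and limits therefore cover counting error only. A deposited table of cells gives the percent of mitochondrial reads, SC3 cluster labels and monocle states. Cluster 1 is the label 2 of the deposited column for 2 clusters. An imputed table was not used, since imputation shares values between cells. Symbols and positions came from GENCODE M21 by Ensembl identifier (14135 of 14299 genes), and start regions from RefSeq. No pairing of control and E2 libraries exists.

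Library sums were made for each cluster from the estimated counts, rounded, and kept where a sum held at least 3 cells, which removed 3 of 42 E2-treated cells of cluster 1. The quasi-likelihood test of edgeR 4.0.16 (R 4.3.3) followed TMM scaling and filterByExpr, and p-values were adjusted by the Benjamini-Hochberg method over all genes tested. The SE is |log2 fold change| over the root of F. Levels are CPM with TMM over all sums. The scripts were tested on simulated data. Alternatives were DESeq2 1.42.0, limma-voom (limma 3.58.1), RLE factors, no filter, sums of at least 5 cells, thinning of each cell to 20000 reads, labels for 3 clusters, summed copies, the library as a block and each library left out. Levels, marker sums and the interaction without column 15, and the fibroblast sum without Col1a2, were added after seeing the data.

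The members, lists and tests were chosen with earlier results of these data known. Genes named besides the members are their copies, listed complement genes called with E2 or above 50 CPM in a group, the 3 genes nearest to each member with at least 100 counts, and Greb1. Thy1, Col1a1, Col3a1, Mmp2, Dcn, Pdgfra, Krt19, Nfkbia, Vcam1 and B2m lie outside this rule and were chosen after their values were seen. Serping1 and C4a were not analysed here, and values of some listed genes are not reported here. Lists of interferon-induced and NF-kB and acute phase genes and markers of OSE, stromal fibroblasts, leukocytes, endothelium, and granulosa and theca cells were written from general knowledge.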

Additional observations from a re-analysis of the deposited data

Results flagged for a closer look

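Within the groups of libraries, 8 of 30 sets of values had a highest library further from its neighbour than Dixon's critical value allows. That value is set for about 1 in 20 among independent sets of normal values. These sets share libraries between genes and include genes near 0, so nothing is read from the count. Column 15 was that library in 5 of them. In E2-treated cells of cluster 1 its sum of 3 cells had 8138 CPM of C1s1 (next highest 4209), 589 CPM of C1s2 (next 214) and 1239 CPM of Cd55 (next 168). In E2-treated responsive cells the same column had 1825 CPM of Cd55 from 5487 reads (next 1019) and 16.3 CPM of Cd46 from 49 reads (next 0.848). Among control libraries, column 6 had 48.3 CPM of C1s2 in responsive cells (next 31.1) and 334 CPM of Cd55 in cluster 1 (next 195). Column 3 had 29.1 CPM of Cd46 in cluster 1, from 40 reads, where every other control library was at 0.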

How the results depend on the processing

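In responsive cells the calls of Cd55, C3 and C1s1 held under every alternative run, and 107 to 141 genes were called with each library left out in turn, with 3 members each time. DESeq2 called 234 genes there, 52 in cluster 1, 98 in the interaction and 318 in all cells. Without a filter 1 gene was called in cluster 1. In the interaction, limma-voom called 13 genes and thinned cells 5. Members called in the interaction were 3 of the 98 genes with DESeq2, 1 (C3) of the 5 with thinned cells, and 2 with RLE factors. The methods differed in how many genes they called, so nothing is read from these member counts. With the library as a replicate block, which pairs both clusters of a library, the interaction gave 0 called genes, and without column 15 it gave 19 and 0 members. No paired analysis was possible for E2 against control because the conditions share no column numbers. Leaving out single libraries gave 1 to 9 called genes and 0 to 0 members in cluster 1, and 133 to 209 genes and 4 to 4 members in all cells.

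Directions turned only for values that were not called. In cluster 1 these were Cd55 (-0.36 with DESeq2 and -0.44 with at least 5 cells or without column 15), C1s1 (-0.061 with limma-voom and -0.12 with at least 5 cells or without column 15) and C1s2 (-0.088 and -0.14). With single libraries left out these ranged from -0.12 to 0.41 for C1s1, from -0.14 to 0.51 for C1s2 and from -0.44 to 1.28 for Cd55. In the interaction, C4b was 0.92 with DESeq2 and 2.97 with limma-voom, and Cd55 was 0.0094 with RLE factors. Cd59a was 0.21 with thinned cells in all cells, and its log2 ratio of cluster 1 over responsive cells was -0.13 with copies summed. RLE factors moved the median over all genes from -0.19 to -0.02 in the interaction and from -0.06 to 0.05 in cluster 1. The cause of these shifts was not tested. C4b and Cd46 were too sparse to show a change of moderate size.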

Other observations

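Genes of interferon and NF-kB signalling were counted beside the complement genes in responsive cells, from lists written from general knowledge with earlier results known. Of 14 interferon-induced genes tested, none was called, and their median log2 fold change was -0.50 against 0.02 over all genes. B2m, the light chain of class I MHC molecules, was at 275 ± 62.4 CPM in control and 194 ± 54.5 CPM in E2 libraries (log2 fold change -0.50, SE 0.17, edgeR adjusted p = 0.205). Of 14 NF-kB and acute phase genes tested, 2 were called lower with E2 and none higher, with a median of -0.48, against 0.526% of all 10265 genes called lower and 0.848% higher. The fold changes of those not called were of both signs. Nfkbia, the NF-kB inhibitor gene that NF-kB itself induces, went from 275 ± 57.5 to 160.0 ± 28.8 CPM (log2 fold change -0.78, SE 0.15, adjusted p = 0.00303). Vcam1, a leukocyte adhesion molecule, went from 31.2 ± 34.1 to 1.60 ± 2.63 CPM (log2 fold change -4.24, SE 0.94, adjusted p = 0.0140), with an SD above the mean in both conditions. In cluster 1 none of the 10 interferon-induced and 12 NF-kB and acute phase genes tested was called, against 0.0839% of all 8340 genes tested, and their medians were 0.01 and -0.06.

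Of the other marker lists in responsive cells, Krt19 of the 10 OSE markers was called higher with E2 (log2 fold change 0.62, SE 0.13, adjusted p = 0.00973). No leukocyte, endothelial, or granulosa and theca marker that was tested (3, 1 and 1 genes) was called. Of all 10265 genes tested there, 0.848% were called higher and 0.526% lower, and nothing is read from the counts for these short lists.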
